A study of Mus musculus with 6 samples.

Results

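The nuclear-encoded subunits of the oxidative phosphorylation machinery were described in hematopoietic stem cells (HSCs) of Mcph1-/- and WT mice. Members were the genes whose symbols follow the Nduf, Sdh, Uqcr, Cyc1, Cox4 to Cox8 and Atp5 naming, without rows marked as pseudogenes by a -ps suffix. They numbered 81 of 11108 listed genes: 37 of complex I, 4 of complex II, 9 of complex III, 14 of complex IV and 17 of complex V. The rule used names, not measured values. Each of 6 bulk libraries, 3 from Mcph1-/- mice and 3 from WT mice, came from 200 bone marrow cells sorted as Lineage- Sca-1+ c-kit+ CD34- CD150+ and prepared by Smart-seq2, which copies whole transcripts from very few cells. The labels give neither the kind of Mcph1 allele nor the age or sex of the mice, and both genotypes were untreated.

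Oxidative phosphorylation couples the transfer of electrons along complexes I to IV of the inner mitochondrial membrane to the pumping of protons, and complex V (ATP synthase) uses the proton gradient to make ATP. Most subunits are encoded in the nucleus and imported, while a few core subunits of complexes I, III, IV and V are encoded by mitochondrial DNA. HSCs at rest are known for low mitochondrial activity and a large part of glycolysis in their ATP supply, and respiration is turned up when they divide and differentiate.

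Values are normalised read counts, that is, reads per gene divided by a scaling factor for each library. Summed over the listed genes, every library held between 8102605 and 10455908 reads. The sort markers Kit and Ly6a (Sca-1) were read in all 6 libraries, and Slamf1 (CD150) was read in 5 of 6 and had 0 reads in WT replicate 1. Mcph1 itself had 428, 37.7 and 234 normalised counts in Mcph1-/- libraries, against 160, 341 and 34.4 in WT libraries; the 2 groups overlapped, and without knowing the deleted exons this count does not check the genotype. Other cell types' markers moved with genotype. The 7 of 12 neutrophil markers with values summed to between 3287 and 18724 normalised counts in Mcph1-/- libraries and between 58564 and 67847 in WT libraries, and 3 of them (S100a8, S100a9 and Ngp) passed limma's adjusted threshold. Not all 7 moved together: 4 were lower in every Mcph1-/- library and the others overlapped. Among the latter, the granule gene Elane had 3.65, 0 and 8095 in Mcph1-/- libraries, against 3614, 138 and 1.01 in WT libraries. The 11 of 13 erythroid markers with values summed to between 51766 and 57650 in Mcph1-/- libraries and between 20046 and 41712 in WT libraries, with Car1 past the threshold. Car1 and Car2 carried most of that sum. The globin gene Hba-a1 went the other way, with 185, 55.0 and 101 normalised counts in Mcph1-/- libraries against 581, 251 and 8516 in WT libraries, and Hba-a2 and Hbb-bs were also lower in every Mcph1-/- library. The 3 of 8 monocyte markers with values summed to between 4436 and 4792 in Mcph1-/- libraries and between 7872 and 12700 in WT libraries. The summed megakaryocyte, B cell and T or NK cell markers overlapped between genotypes. The 14 genes listed for HSC sort and identity summed to between 13877 and 16292 in Mcph1-/- libraries and between 16333 and 20276 in WT libraries. That list is mixed: it includes Cd34, which the sort selected against and which had between 201 and 569 normalised counts in the 6 libraries. Of the 14, 1 was higher in every Mcph1-/- library and 2 were lower. Hbb-bs (erythroid) and Elane (neutrophil) had 0 reads in 1 of 3 Mcph1-/- libraries each, and Ly6c2 (monocyte) had 0 in 2 of 3 Mcph1-/- libraries. Their part in the results below was not tested. In such bulk libraries, fewer cells of a type and less RNA per cell cannot be told apart. Whether libraries of 1 genotype are from different animals is not stated, so the p-values reflect spread among libraries alone, and that spread may be technical.

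As a group, the subunit genes stood at about the same level in both genotypes. All 81 members were read in all 6 libraries, as were 75.4% of the genes tested and 99.7% of those with a mean of at least 500 normalised counts. Their median log2 fold change of Mcph1-/- over WT was 0.01, beside 0.08 over all 10846 genes tested and 0.01 over those with a mean of at least 500. In 69 of 81 members the change was under 0.5 in size on the log2 scale. So it was in 4644 of all 10846 genes tested and in 2495 of the 3728 genes with a mean of at least 500. The median size was 0.18 in the members, beside 0.62 over all genes and 0.34 over those 3728. The members are mostly abundant, with a median level of 2510 normalised counts, beside 286 over all genes tested and 1089 over those 3728. By direction 43 members had a higher mean log2 value in Mcph1-/- HSCs (53.8% of all genes did) and 38 a lower one (46.2% of all genes). By limma with Benjamini-Hochberg adjustment over all genes, 0 of 81 members passed an adjusted p of 0.05, where 0.00922% of all genes were called higher and 0.0277% lower. Neither edgeR nor limma-voom on the recovered reads called any member, where edgeR called 0.0184% of genes lower and none higher and limma-voom 0.00922% higher and none lower, and DESeq2 called 1, Sdhd, where it called 1.13% of genes higher and 1.11% lower. At an unadjusted limma p under 0.05 there were 9 members: 6 higher in Mcph1-/- (Sdhd, Atp5g1, Ndufs6, Atp5b, Cox6a1 and Uqcrc2; background 4.16%) and 3 lower (Ndufb8 and Ndufa11 among them; background 3.55%). Of the 3728 genes with a mean of at least 500, 251 were higher and 230 lower at this limma p. The 9 members became 5, 5 and 3 without Mcph1-/- replicate 1, 2 and 3. The genotypes did not overlap in 14 members, 7 higher in Mcph1-/- libraries (background 7.40%) and 7 lower (background 6.80%). These shares of members without overlap are close to the background.

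**Figure D1:**
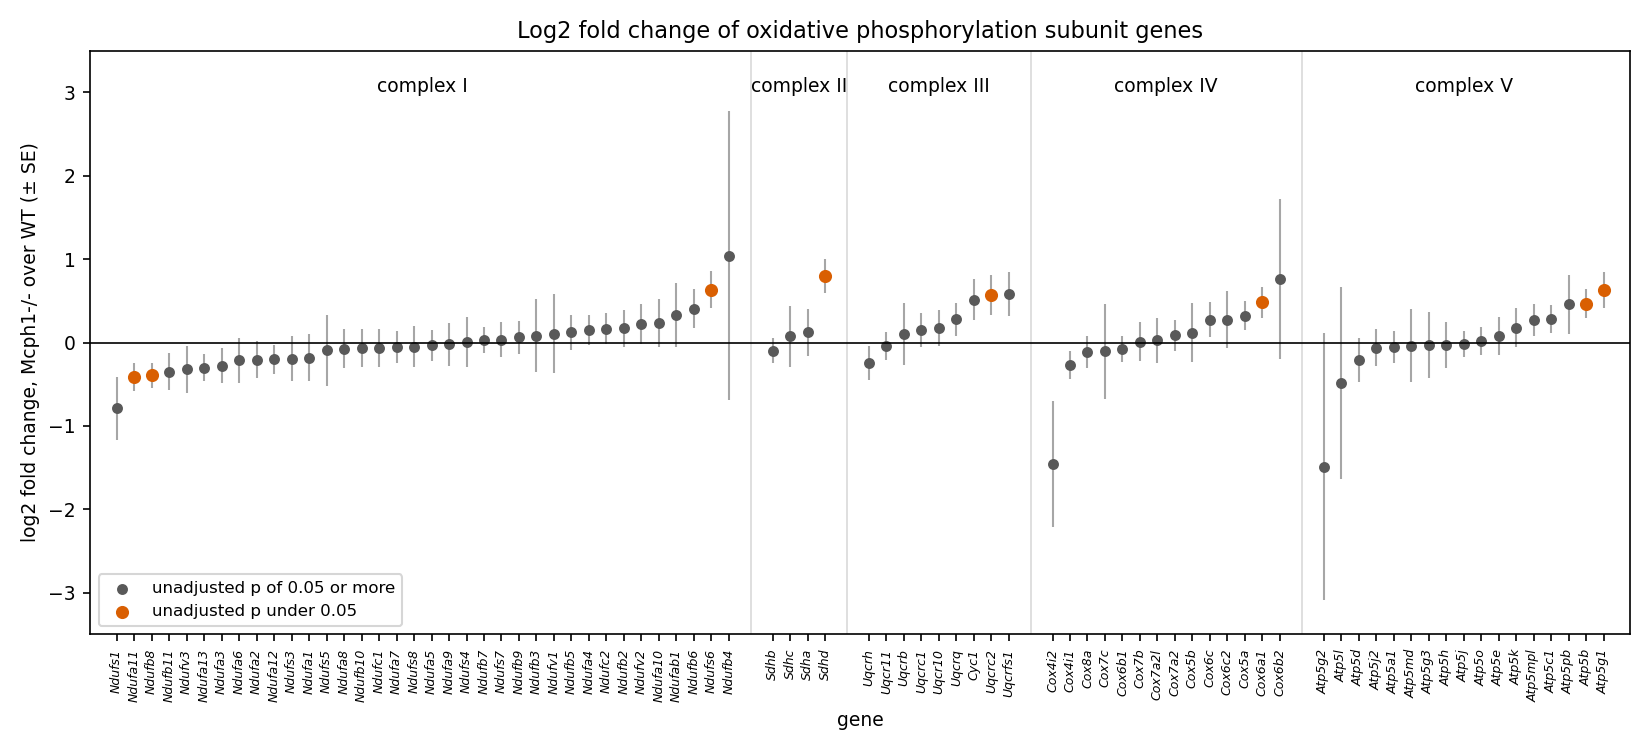
Log2 fold change (Mcph1-/- over WT, ± SE) of 80 of the 81 subunit genes on the vertical axis, grouped by complex I to V along the horizontal axis. Most points lie within 0.5 of 0; the widest error bars belong to genes with few reads such as Ndufb4 and Atp5g2.

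In shares of each library's reads in listed genes, the 81 members took 3.22%, 2.90% and 3.04% in Mcph1-/- libraries. In WT libraries they took 3.18%, 2.97% and 2.65%. The groups overlapped, with means of 3.06% ± 0.159 in Mcph1-/- and 2.93% ± 0.266 in WT (SD, n = 3 each). Leaving the mitochondrially encoded genes and the neutrophil markers out of the totals gave 3.09% in Mcph1-/- and 2.98% in WT. Complex II was the exception to this overlap: it took 0.194%, 0.173% and 0.191% of reads in Mcph1-/- libraries, against 0.147%, 0.153% and 0.164% in WT libraries. Sdhd alone carried this separation: Sdha, Sdhb and Sdhc together took 0.128%, 0.0926% and 0.122% in Mcph1-/- libraries and 0.115%, 0.114% and 0.112% in WT libraries, which overlapped. Complex I overlapped, with 1.32%, 1.17% and 1.24% in Mcph1-/- libraries and 1.45%, 1.29% and 1.13% in WT libraries. Complexes III, IV and V overlapped too, with means of 0.434%, 0.564% and 0.627% in Mcph1-/- and 0.375%, 0.551% and 0.562% in WT.

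**Figure D2:**
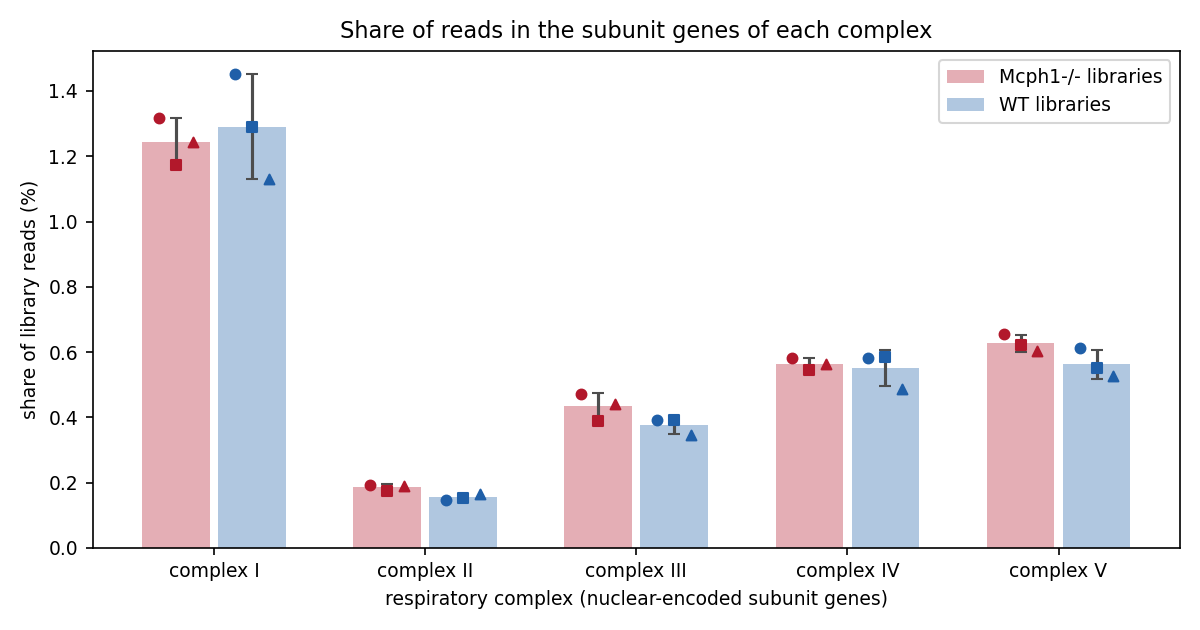
Share of each library's reads in listed genes (%, vertical axis) taken by the nuclear-encoded subunit genes of each complex (horizontal axis). Each point is 1 library and bars are group means. The 3 Mcph1-/- libraries lie above the 3 WT libraries for complex II (0.173% or more against 0.164% or less), a separation carried by Sdhd, and overlap with them for the other complexes.

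Complex I (NADH dehydrogenase), which takes electrons from NADH, leaned slightly to lower values in Mcph1-/- HSCs: 16 of 37 subunit genes had a higher mean log2 value and 21 a lower one, with a median log2 fold change of -0.05. That median was -0.19 without WT replicate 3 and 0.05 without WT replicate 1. Among its 7 core subunits, which carry the flavin and iron-sulfur centres or the quinone site, 3 were higher and 4 lower. Ndufs1, the largest core subunit and holder of several iron-sulfur clusters, had 676, 573 and 328 normalised counts in Mcph1-/- libraries, against 711, 960 and 961 in WT libraries. These groups did not overlap, though Mcph1-/- replicate 1 and WT replicate 1 were close (log2 fold change -0.79, SE 0.38, limma adjusted p = 0.662). The flavin-binding core subunit Ndufv1 varied within both genotypes, with 900.4, 2166 and 2140 normalised counts in Mcph1-/- libraries and 1771, 2342 and 808 in WT libraries.

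Of the accessory subunits of complex I, 13 of 30 were higher in Mcph1-/- HSCs and 17 lower. Ndufb8, a membrane-arm subunit (chr19:44548572-44555440, minus strand, GRCm38), had 5900, 4960 and 5897 normalised counts in Mcph1-/- libraries, against 7797, 6512 and 7700 in WT libraries. The genotypes did not overlap (log2 fold change -0.39, SE 0.15, limma adjusted p = 0.626). Ndufa11, another membrane-arm subunit, had 3236, 2915 and 3103 normalised counts in Mcph1-/- libraries, against 4711, 3869 and 3810 in WT libraries. It too was lower in all 3 Mcph1-/- libraries (log2 fold change -0.42, SE 0.17, limma adjusted p = 0.638). Ndufs6, a subunit that binds zinc, went the other way, with 2175, 2774 and 1946 normalised counts in Mcph1-/- libraries, against 1366, 1650 and 1392 in WT libraries. Its log2 fold change was 0.63 (SE 0.22, limma adjusted p = 0.626). Ndufb6, of the membrane arm, had 2988, 3303 and 2234 normalised counts in Mcph1-/- libraries and 2534, 1776 and 2098 in WT libraries, with 1 library of each genotype in the other's range (log2 fold change 0.41, SE 0.23). Ndufab1, the mitochondrial acyl carrier protein, had 767, 576 and 725 normalised counts in Mcph1-/- libraries and 838, 444 and 435 in WT libraries, which overlapped. Exons of Ndufs1, Ndufb8, Ndufa11 and Ndufs6 overlap exons of another annotated gene, as do those of 29 of 81 members; among the 52 that overlap none, 31 were higher and 21 lower. Ndufa12 and Ndufa13 were also lower in all 3 Mcph1-/- libraries. Ndufa4, listed by name here but now placed in complex IV, had 5534, 5369 and 5259 normalised counts in Mcph1-/- libraries and 5403, 5474 and 3832 in WT libraries, which overlapped. Per kb of exon, Ndufa2 (10490 normalised counts per kb) and Ndufa8 (6838) had the highest levels of the complex.

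Complex II (succinate dehydrogenase) sits in both the tricarboxylic acid cycle and the respiratory chain and is encoded wholly in the nucleus. Its membrane anchor gene Sdhd (chr9:50596357-50603812, minus strand) had the smallest p of all 81 members. Sdhd had 5680, 6916 and 5798 normalised counts in Mcph1-/- libraries, against 2837, 3370 and 4536 in WT libraries. All 3 Mcph1-/- libraries lay above all 3 WT libraries, with means of 6131 ± 682 in Mcph1-/- and 3581 ± 869 in WT (SD, n = 3 each). The log2 fold change was 0.80 (SE 0.21), or 1.74-fold, and ranged between 0.64 and 0.98 when any 1 library was left out. The adjusted p was 0.550 by limma, 0.703 by edgeR and 0.0104 by DESeq2, and over all alternatives it lay between 0.0104 and 0.858. No 50-base stretch of the Sdhd coding sequence occurs in another annotated gene, and none of its exons overlaps another gene's.

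The other anchor, Sdhc, overlapped between genotypes, with 2194, 1002 and 1621 normalised counts in Mcph1-/- libraries and 1269, 2125 and 1137 in WT libraries. Sdha, the flavoprotein that oxidises succinate, had 1541, 1073 and 2068 normalised counts in Mcph1-/- libraries and 1311, 1442 and 1401 in WT libraries. Sdhb, the iron-sulfur subunit, had 7321, 5870 and 6652 normalised counts in Mcph1-/- libraries and 7533, 6347 and 7316 in WT libraries. For these 3 genes the log2 fold changes were 0.07 (SE 0.36), 0.12 (SE 0.28) and -0.10 (SE 0.15). The median over the 4 genes of the complex, 0.10, was -0.03, 0.37 and -0.04 when Mcph1-/- replicates 1, 2 and 3 were left out in turn.

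The core genes of complex III, the cytochrome bc1 complex that passes electrons from ubiquinol to cytochrome c, all had a higher mean log2 value in Mcph1-/- HSCs. The median log2 fold change of these 4 genes was 0.54, against 0.18 over all 9 members, of which 7 were higher and 2 lower; no gene of the complex had groups that did not overlap. The median over all 9 was 0.38 without WT replicate 1. Uqcrc2, a core protein that faces the matrix, had 4060, 2746 and 2991 normalised counts in Mcph1-/- libraries, against 1878, 2795 and 1918 in WT libraries. WT replicate 2 lay within the Mcph1-/- range (log2 fold change 0.58, SE 0.24, limma adjusted p = 0.642). Uqcrfs1, the Rieske iron-sulfur protein, had 3645, 3489 and 2101 normalised counts in Mcph1-/- libraries, against 1635, 2066 and 2349 in WT libraries. Mcph1-/- replicate 3 lay within the WT range (log2 fold change 0.58, SE 0.27, limma adjusted p = 0.662). Cyc1, cytochrome c1, had 5117, 3148 and 5168 normalised counts in Mcph1-/- libraries, against 3550, 2456 and 3277 in WT libraries, with Mcph1-/- replicate 2 inside the WT range. Uqcrc1, the partner core protein of Uqcrc2, had 7756, 6283 and 8168 normalised counts in Mcph1-/- libraries and 5361, 8635 and 6345 in WT libraries. Its groups overlapped, at a log2 fold change of 0.15 (SE 0.21). Among the small accessory subunits, Uqcrq was highest in Mcph1-/- relative to WT (log2 fold change 0.28, SE 0.20) and Uqcrh lowest (-0.25, SE 0.20). Per kb of exon the small subunits Uqcr10 (8387 normalised counts per kb) and Uqcr11 (7141) had the highest levels.

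Complex IV (cytochrome c oxidase) hands electrons to oxygen; its nuclear subunits surround the mitochondrially encoded catalytic core, and several exist as alternative isoforms. Of 14 members, 9 were higher in Mcph1-/- HSCs and 5 lower, and the median log2 fold change was 0.06. Cox6a1, the isoform of Cox6a found in most tissues (chr5:115345642-115348981, minus strand), had 7343, 6763 and 7186 normalised counts in Mcph1-/- libraries, against 4979, 6419 and 4087 in WT libraries. The genotypes did not overlap, although WT replicate 2 came close (log2 fold change 0.48, SE 0.19, limma adjusted p = 0.626). Cox5a, a matrix-side subunit, had 4036, 3084 and 3499 normalised counts in Mcph1-/- libraries, against 2734, 2907 and 2799 in WT libraries. It was the other complex IV gene that was higher in every Mcph1-/- library (log2 fold change 0.32, SE 0.17, limma adjusted p = 0.666).

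The isoform pair Cox4i1 and Cox4i2, of which Cox4i2 is known from lung and from low-oxygen conditions, differed in level and in the size of the change. Cox4i1 had 10398, 12081 and 9009 normalised counts in Mcph1-/- libraries and 14152, 13180 and 10577 in WT libraries. Cox4i2 had 73.0, 118 and 79.5 normalised counts in Mcph1-/- libraries, against 208, 247 and 281 in WT libraries. Cox4i2 was lower in all 3 Mcph1-/- libraries, whereas Cox4i1 overlapped. The log2 fold change of Cox4i2 was -1.46 (SE 0.76, limma adjusted p = 0.663), and that of Cox4i1 was -0.27 (SE 0.17). Cox4i2 counts were 0.702%, 0.978% and 0.882% of Cox4i1 counts in Mcph1-/- libraries, against 1.47%, 1.88% and 2.66% in WT libraries. Corrected for exon length, the ratio lay between 1.38% and 5.23% over the 6 libraries, so Cox4i1 was the prevailing isoform in every library. Cox6b2, the isoform known from testis, stood between 0.390% and 3.36% of Cox6b1 per kb, with no order by genotype. Cox7a2l, which helps join complexes III and IV, and Cox7a2 had log2 fold changes of 0.03 (SE 0.27) and 0.08 (SE 0.19). Per kb of exon, Cox8a (11430 normalised counts per kb) and Cox6b1 (10457) had the highest levels of complex IV, and Cox8a the highest of all 81 members.

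In complex V, 8 of 17 members were higher in Mcph1-/- HSCs and 9 lower, and the median log2 fold change was -0.02. Atp5b, the catalytic beta subunit of the F1 head (chr10:128083273-128090391, plus strand), had 10111, 8631 and 11000 normalised counts in Mcph1-/- libraries, against 7779, 5873 and 8006 in WT libraries. The groups did not overlap (log2 fold change 0.46, SE 0.17, limma adjusted p = 0.626). Its partner in the head, the alpha subunit Atp5a1, had 4581, 5569 and 4335 normalised counts in Mcph1-/- libraries and 4058, 5188 and 5930 in WT libraries, which overlapped (log2 fold change -0.06, SE 0.19). The other head and stalk genes, Atp5c1, Atp5d and Atp5e, overlapped as well, so 3 of 5 genes of this part of the enzyme were higher and 2 lower.

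The membrane ring of ATP synthase is built from subunit c, which 3 genes encode with the same mature protein. Atp5g1 had 2293, 2061 and 2431 normalised counts in Mcph1-/- libraries, against 1737, 1430 and 1244 in WT libraries. It was higher in every Mcph1-/- library (log2 fold change 0.63, SE 0.21, limma adjusted p = 0.626). Atp5g3 had 2323, 1811 and 1112 normalised counts in Mcph1-/- libraries and 2501, 1975 and 1009 in WT libraries, with no order by genotype (log2 fold change -0.03, SE 0.40). Atp5g2 had 2.74, 17.2 and 8.93 normalised counts in Mcph1-/- libraries and 69.4, 16.5 and 11.1 in WT libraries; Mcph1-/- replicate 1 lay near the floor of 3 reads, which is between 2.46 and 3.25 normalised counts by library. The accessory subunit Atp5mpl was the third complex V gene that was higher in every Mcph1-/- library (log2 fold change 0.27, SE 0.19). Per kb of exon, Atp5o (3429 normalised counts per kb), of the peripheral stalk, and Atp5c1 (2926) had the highest levels of complex V.

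**Figure D3:**
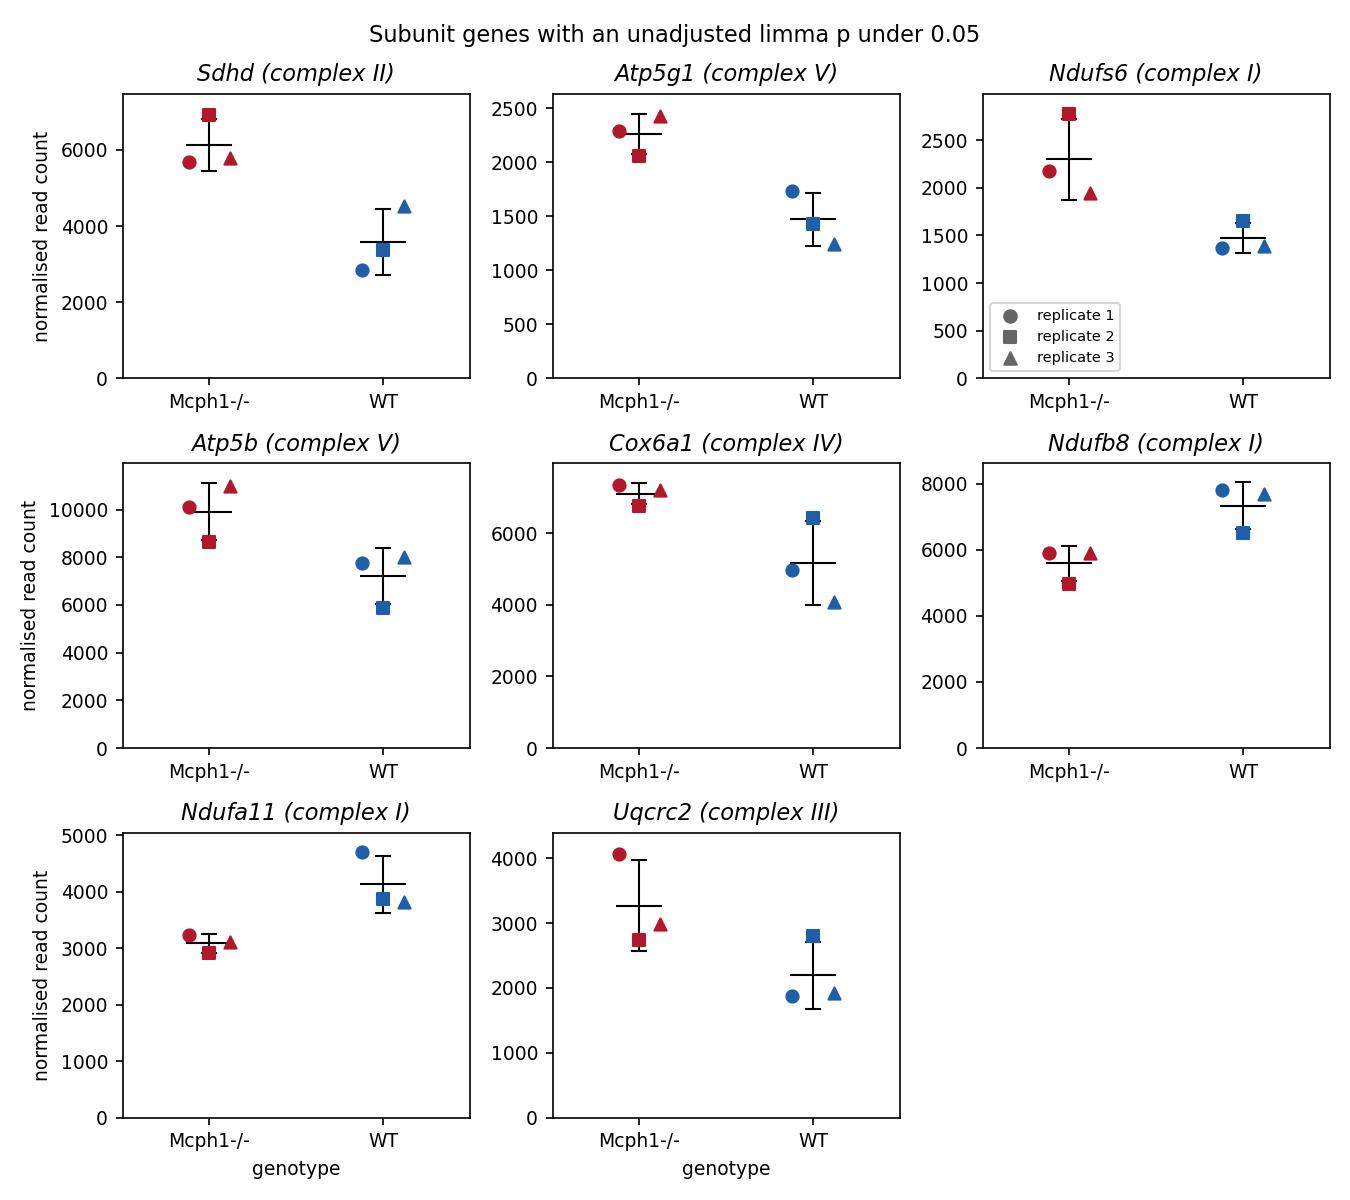
Normalised read counts (vertical axis, starting at 0) of 8 of the 9 subunit genes with an unadjusted limma p under 0.05, by genotype; points are libraries and bars mark means ± SD (n = 3 each). Mcph1-/- libraries lie on 1 side of the WT libraries in 7 of the panels, and Uqcrc2 overlaps.

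The spread between libraries was smaller in Mcph1-/- than in WT for 59 of 81 members (72.8%, beside 63.9% of all genes tested). The median SD of the log2 values was 0.18 in Mcph1-/- and 0.29 in WT, beside 0.61 and 0.85 over all genes tested. Over genes with a mean of at least 500 it was 0.31 and 0.42. Of those genes, 65.1% had the smaller SD in Mcph1-/-. The members' median also differed by library: their median deviation from each gene's mean, on the log2 scale, was 0.11, -0.08 and 0.03 in Mcph1-/- replicates 1 to 3 and 0.14, 0.04 and -0.13 in WT replicates 1 to 3. Over all genes tested this median was 0.12, 0.18 and 0.16 in Mcph1-/- replicates 1 to 3 and 0.10, 0.12 and 0.12 in WT replicates 1 to 3. For complex I it was 0.27, 0.03 and -0.12 in WT replicates 1 to 3, and for the 4 genes of complex II 0.20, -0.32 and 0.22 in Mcph1-/- replicates 1 to 3. For the members and for these complexes, such shifts between libraries of 1 genotype were larger than the median difference between genotypes.

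Many of these genes have near-identical copies elsewhere in the genome, and the counts of such genes depend on how reads were shared out. In 39 of 81 members at least 1 stretch of 50 coding bases also occurs in another annotated gene, and in 42 none does. The 42 members without such a stretch had 23 higher and 19 lower, a median log2 fold change of 0.03, and 2 genes at an unadjusted limma p under 0.05, Sdhd and Uqcrc2. The other 7 genes at that level share some sequence, among them 1.04% of the stretches in Atp5b, 22.3% in Cox6a1 and 99.7% in Atp5g1. In 7 members (Ndufab1, Ndufb4, Cox7c, Atp5g1, Atp5g2, Atp5l and Atp5md) at least 90% is shared. These 7 had levels of 11.7 to 380 normalised counts per kb (median 91.7). The 42 without shared stretches had 86.8 to 11430 (median 1835), with 7 of them under 500. The 32 members that share some sequence but less than 90% had a median of 1920. Exon bases, by which the level is divided, ranged from 1131 (Cox7c) to 6883 (Ndufab1) among the 7.

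**Figure D4:**
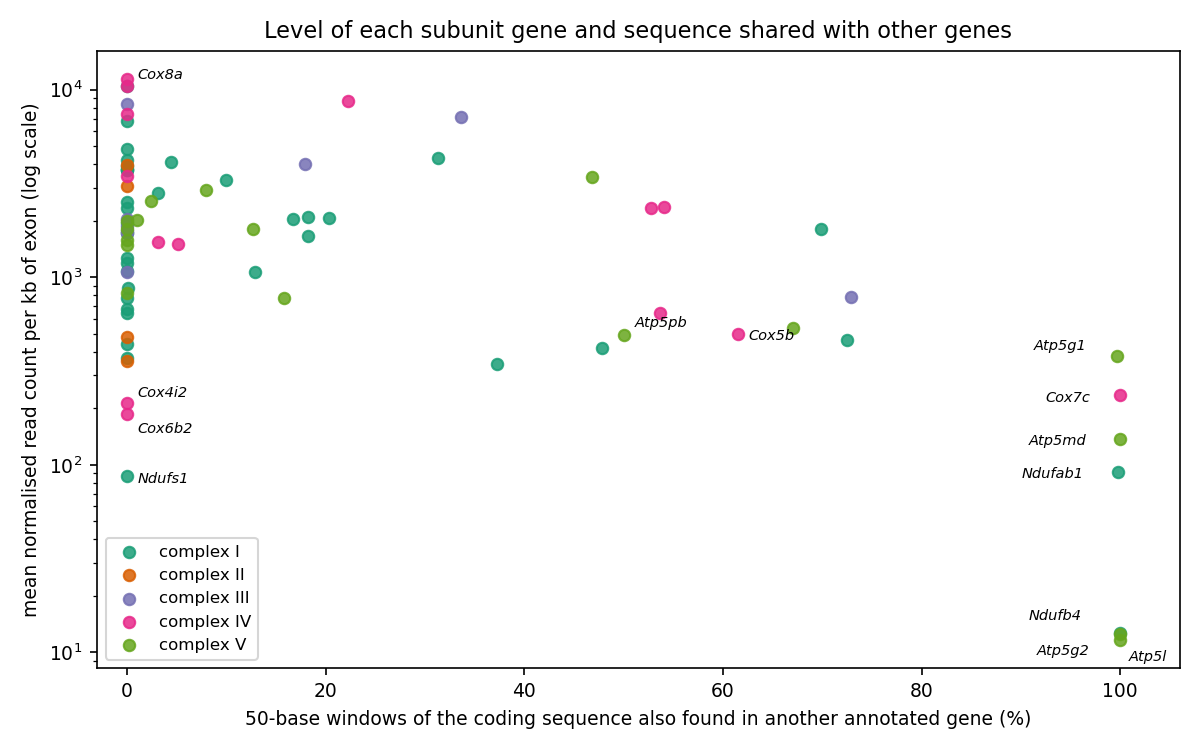
Mean normalised count per kb of exon (vertical axis, log scale) against the percentage of 50-base coding windows also found in another annotated gene (horizontal axis); each point is 1 of the 81 subunit genes. The 7 genes at 90% or more all lie between 11.7 and 380 normalised counts per kb.

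For 6 of these 7 members a copy was listed with its own counts, and in all 6 a processed pseudogene had more counts than the member. Atp5l, a membrane subunit of ATP synthase, had 66.6, 64.8 and 44.6 normalised counts in Mcph1-/- libraries and 39.0, 108 and 128 in WT libraries. Its copy Gm10221 had 2608, 3006 and 3158 in Mcph1-/- libraries and 2915, 2470 and 2758 in WT libraries, a mean 37.5 times that of Atp5l. Cox7c and Ndufab1 had copies (Gm12338 and Gm4459) with 6.28 and 2.40 times their mean, and the copy of Atp5md, Gm14539, averaged 1521 normalised counts against 380.1 for Atp5md. The copy of Atp5g1, Gm10039 on chromosome 11, had 6531, 7086 and 7178 normalised counts in Mcph1-/- libraries, against 5334, 4583 and 3891 in WT libraries. Like Atp5g1 it was higher in every Mcph1-/- library (log2 fold change 0.60, SE 0.16, limma adjusted p = 0.555). The levels listed for these members are therefore uncertain as measures of the genes themselves. Atp5g1 was low per kb but not in counts, with a mean of 1866 normalised counts beside a median of 2021 over complex V.

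In the deposited rows, 3 further pairs ran in nearly fixed proportion across all 6 libraries. The following stretches of their coding sequence and copy (5′ to 3′ on the gene's strand, GENCODE vM21 on GRCm38) are shown because they let a reader see how few bases tell the pairs apart; capitals mark the bases that differ.
Atp5pb: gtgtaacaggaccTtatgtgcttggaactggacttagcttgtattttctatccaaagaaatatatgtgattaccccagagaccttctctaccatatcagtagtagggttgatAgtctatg
Atp5pb-ps: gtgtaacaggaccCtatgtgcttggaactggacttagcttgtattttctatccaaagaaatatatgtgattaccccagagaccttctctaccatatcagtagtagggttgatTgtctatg
Cox5b: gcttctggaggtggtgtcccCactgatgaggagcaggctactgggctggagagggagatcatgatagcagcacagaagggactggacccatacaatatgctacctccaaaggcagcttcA
Cox5b-ps: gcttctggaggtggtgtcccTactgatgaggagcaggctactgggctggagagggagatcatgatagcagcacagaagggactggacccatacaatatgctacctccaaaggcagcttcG
Cox6c: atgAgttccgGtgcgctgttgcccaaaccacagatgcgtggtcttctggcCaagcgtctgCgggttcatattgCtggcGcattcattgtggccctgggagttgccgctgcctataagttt
Cox6c2: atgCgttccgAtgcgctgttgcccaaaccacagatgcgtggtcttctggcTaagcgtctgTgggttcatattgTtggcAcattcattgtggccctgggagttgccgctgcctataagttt
Atp5pb, of the peripheral stalk (chr3:105942698-105960099, minus strand), and Atp5pb-ps (chr11:55118101-55118795, minus strand) were identical at 684 of 691 aligned bases. Cox5b, of complex IV (chr1:36691449-36693681, plus strand), and Cox5b-ps (chr13:21501029-21501418, minus strand) were identical at 384 of 387. GENCODE annotates Cox5b-ps as protein-coding, although its suffix kept it out of the members. Cox6c (chr15:35925886-35938246, minus strand) and Cox6c2 (chr12:56373593-56373823, minus strand), a member by name that GENCODE annotates as a processed pseudogene, were identical at 221 of 228.

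Atp5pb had 2356, 2177 and 2251 normalised counts in Mcph1-/- libraries and 906, 2160 and 2275 in WT libraries. Atp5pb-ps had 2617, 2202 and 2349 in Mcph1-/- libraries and 859, 2481 and 2359 in WT libraries. WT replicate 1 was low for both rows, and the ratio of copy to gene stayed between 0.949 and 1.15. Cox5b had 887, 698 and 840 normalised counts in Mcph1-/- libraries and 1060, 755 and 507 in WT libraries. Cox5b-ps followed it at 3.90 to 4.46 times the count, which was more in the copy than in the gene. Cox6c2 stood at 0.203 to 0.257 times Cox6c.

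**Figure D5:**
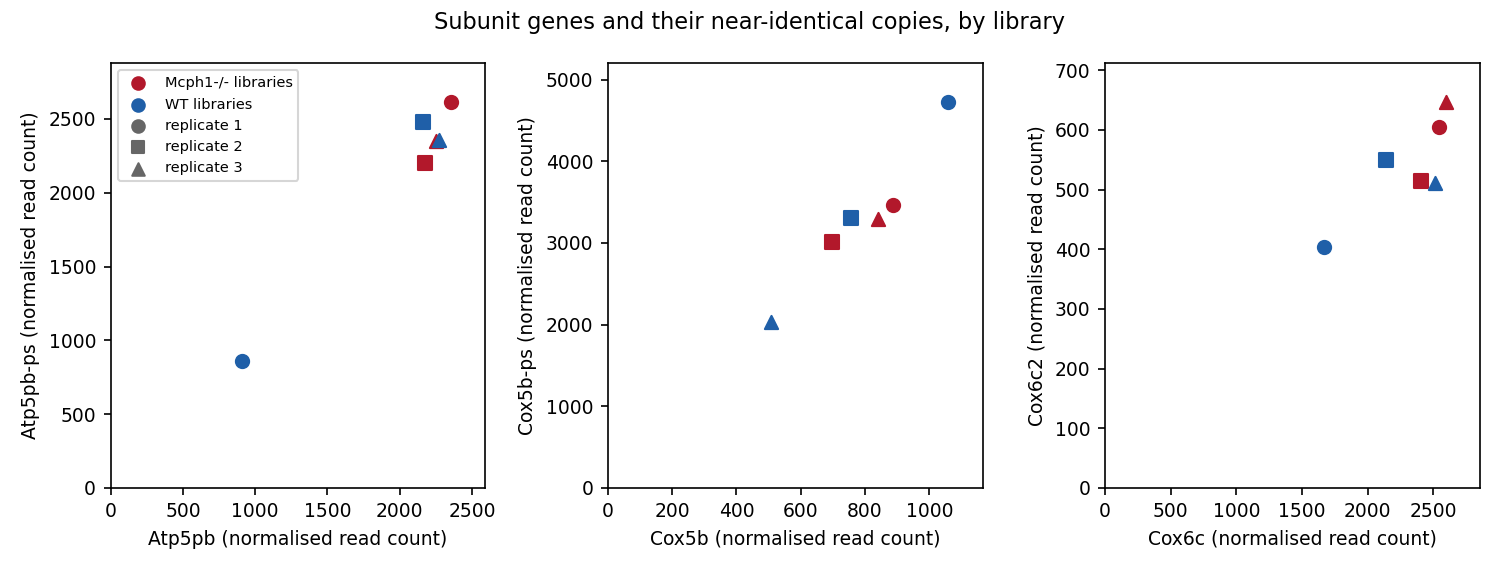
Normalised read count of each copy (vertical axes) against that of its gene (horizontal axes) for Atp5pb, Cox5b and Cox6c; each point is 1 library, by genotype. Points lie near a line through 0 in every panel, with ratios of 0.949 to 1.15, 3.90 to 4.46 and 0.203 to 0.257.

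Promoter windows (250 bases before and 50 after the start, RefSeq, GRCm38.p6) were found for 66 of 81 members, as 71 windows. Each was searched on both strands for 4 letter strings, none of which contains another, so that 1 window can hold several. The NRF1 string (GCGCA, then any base, then GCGC), for a factor known to bind respiratory genes, occurred in 18 of 71 member windows (25.4%), beside 4.60% of all 32851 windows. The ETS string CCGGAAG occurred in 23.9% of member windows and 8.86% of all, and the YY1 string AAGATGGC in 14.1% and 2.75%. The TATA string TATAAA occurred in 9.86% of member windows and 13.6% of all. Of the members with an unadjusted p under 0.05, Sdhd, Ndufs6, Cox6a1 and Ndufa11 hold the NRF1 string, with 3 of them higher in Mcph1-/- HSCs and Ndufa11 lower. Stretches of the Sdhd window (chr9:50603850-50603929, minus strand) and of the Cox6a1 window (chr5:115348982-115349208, minus strand) are shown as members with the string that were higher in every Mcph1-/- library; capitals mark the NRF1 string and, in Sdhd, the ETS string read on the other strand.
Sdhd: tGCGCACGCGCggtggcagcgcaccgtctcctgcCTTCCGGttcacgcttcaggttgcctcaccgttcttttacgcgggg
Cox6a1: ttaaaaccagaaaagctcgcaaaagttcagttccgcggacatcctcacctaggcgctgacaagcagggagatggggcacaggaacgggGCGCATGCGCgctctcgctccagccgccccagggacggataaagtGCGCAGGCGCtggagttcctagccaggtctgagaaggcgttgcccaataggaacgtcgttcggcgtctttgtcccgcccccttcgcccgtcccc
The Sdhd string begins 79 bases before the RefSeq start and lies in an exon of Timm8b, a gene on the opposite strand. Timm8b itself overlapped between genotypes (log2 fold change 0.12, SE 0.26). These matches describe letters in the windows and not binding.

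Genes that work with the subunits were read from 9 lists, and limma, edgeR and limma-voom called 0 genes of any of them at an adjusted p of 0.05; DESeq2 called 1, Cox14, which was lower in Mcph1-/- HSCs. The counts by direction stand beside 53.8% higher over all genes tested, and those at an unadjusted limma p under 0.05 beside 4.16% higher and 3.55% lower. Enzymes of the tricarboxylic acid cycle, which feeds electrons to complexes I and II, had higher mean log2 values in Mcph1-/- HSCs in 12 of 13 genes, with a median log2 fold change of 0.38. Their summed counts lay between 31374 and 36754 in Mcph1-/- libraries and between 27535 and 28592 in WT libraries. At an unadjusted limma p under 0.05, 2 were higher and 0 lower. Fh1 (fumarase) had 1164, 979 and 1162 normalised counts in Mcph1-/- libraries, against 531, 739 and 486 in WT libraries (log2 fold change 0.93, SE 0.30, limma adjusted p = 0.626). Idh3a, a subunit of isocitrate dehydrogenase, had 2028, 2486 and 3096 in Mcph1-/- libraries, against 1425, 1941 and 1073 in WT libraries. Both were higher in every Mcph1-/- library.

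Of 25 protein import genes, 19 were higher and 6 lower, at a median log2 fold change of 0.14 (0.08 over all genes), with 3 higher and 0 lower at an unadjusted p under 0.05 (4.16% and 3.55% over all genes); the matrix chaperonin genes Hspe1 (0.79, SE 0.27) and Hspd1 (0.58, SE 0.23) were among these 3. Complex IV assembly factors leaned to lower values, with 8 of 22 higher and 14 lower, a median of -0.23, and 0 higher and 2 lower at an unadjusted p under 0.05. Cox14, which steadies newly made subunit 1, had 4016, 4244 and 4341 normalised counts in Mcph1-/- libraries, against 7885, 6233 and 5225 in WT libraries (log2 fold change -0.60, SE 0.18, limma adjusted p = 0.610). Pet100 had 713, 704 and 806 in Mcph1-/- libraries, against 1651, 1216 and 1063 in WT libraries. Both were lower in every Mcph1-/- library. Complex I assembly factors had 12 of 17 higher, with a median of 0.32, and 1 gene in each direction at an unadjusted p under 0.05, Foxred1 higher and Tmem186 lower. For complex V assembly 3 of 4 were higher, with a median of 0.48 and Atpaf2 at 0.93 (SE 0.34). Assembly factors of complexes II and III (5 of 10 higher, median -0.01), electron carriers with coenzyme Q synthesis (9 of 16, median 0.28) and regulators of mitochondrial biogenesis (11 of 19, median 0.29) had 0 genes at that level. Ppargc1a, Ppargc1b and Esrra had no values in the table.

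The mitochondrially encoded partners of complexes I, III and IV set WT replicate 3 apart from the other WT libraries. All 7 that were tested had a higher mean log2 value in Mcph1-/- HSCs, with a median log2 fold change of 0.52, but 0 were called by limma, edgeR, limma-voom or DESeq2, 1 (mt-Nd1) had an unadjusted limma p under 0.05, and no gene's groups separated. Summed over the 9 listed genes, they had 84606, 75550 and 68711 normalised counts in Mcph1-/- libraries, against 43075, 46484 and 92669 in WT libraries. The highest library was WT replicate 3 and the lowest were WT replicates 1 and 2. The complex I gene mt-Nd1 had 10348, 11246 and 9476 normalised counts in Mcph1-/- libraries, against 2816, 2971 and 10935 in WT libraries (log2 fold change 1.20, SE 0.47, limma adjusted p = 0.626). The nuclear-encoded members, by contrast, had their lowest share of reads in WT replicate 3, at 2.65%.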

How the data were processed

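Per the labels' protocols, Smart-seq2 libraries of sorted HSCs were sequenced as 150-bp read pairs. Per the submitters' processing notes, the tools were HISAT2, featureCounts, DESeq2 and Trim Galore 0.6.6, on mm10; their settings are not given. The authors deposited 1 table of signal values per gene and library, read counts divided by a size factor. No strand setting is given in the sources used here. All values came out as whole reads within a tolerance of 0.001 once multiplied by a factor per library. Identities and positions came from GENCODE vM21 (96.2% of rows matched).

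The main test was limma 3.58.1 with a mean-variance trend on log2(value + 1), for 10846 genes with a mean of at least 10, adjusted over all of them. Log2 fold changes are on that scale, which for low genes can give larger or smaller sizes than a count model. For Ndufb4 the change was 1.04 by limma, 0.47 by edgeR and 0.44 by DESeq2. For Atp5g2 it was -1.49, -1.71 and -1.75. Alternatives were edgeR 4.0.16, DESeq2 1.42.0 and limma-voom on the recovered reads, a pseudocount of 16, no filter, a mean of at least 50, scaling by library total, leaving out each library, and a replicate block. No 2 libraries were alike within counting noise. The fits were tested on simulated data. Level per kb divides by all exon bases of a gene, which lowers genes with long alternative exons. A floor of 3 reads covers counting error only.

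The members and lists were chosen with earlier results of these data known. Named members were, per complex, the 2 highest per kb, up to 3 with the smallest limma p in each direction, fixed genes of known role, and any called by a test; from each list, up to 2 genes in each direction. Other genes were named after their values were seen. One named member and 1 marker gene are not reported here by name; they stay in the counts.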

Additional observations from a re-analysis of the deposited data

How the results depend on the processing

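Genes called numbered 4 by limma, 2 by edgeR, 1 by limma-voom and 238 by DESeq2, and 1 to 4 when a library was left out. Members called were 0 by limma and 1 by DESeq2, and 0 under every other alternative run. Members with an unadjusted p under 0.05 numbered 9 by limma and 15 by DESeq2, and 3 to 12 when a library was left out. The median log2 fold change of the members lay between -0.07 and 0.08 when a library was left out; that of complex I lay between -0.19 and 0.05, complex II between -0.037 and 0.37, complex III between 0.18 and 0.38, complex IV between 0.03 and 0.15 and complex V between -0.07 and 0.10. Same-numbered libraries did not deviate together (correlations of -0.014, 0.018 and -0.030). The wide spread between libraries could hide a pairing, so this check cannot tell whether the numbers pair them. With the replicate block 3 genes and 0 members were called and 7 members had an unadjusted limma p under 0.05. Of 42 named members, 27 kept their direction under all 14 alternatives. With all libraries in, Cox7a2l was -0.0016 by edgeR and -0.034 by DESeq2, and Atp5g3 0.013 by limma-voom and 0.0013 when scaled by library total. Direction changed when 1 library was left out, with these ranges of log2 fold change, for Atp5o -0.092 to 0.14, Sdhc -0.19 to 0.38, Ndufa8 -0.27 to 0.14, Ndufv1 -0.34 to 0.52, Atp5a1 -0.21 to 0.065, Atp5g3 -0.41 to 0.26, Cox7a2l -0.28 to 0.23, Sdha -0.11 to 0.37, Ndufa2 -0.40 to 0.029, Uqcr11 -0.16 to 0.071, Uqcrc1 -0.0090 to 0.33, Cox6b1 -0.20 to 0.0082, Cox8a -0.29 to 0.012, Cox5b -0.15 to 0.38 and Ndufa4 -0.014 to 0.24. The cause of these changes was not tested. With 3 libraries a genotype of 200 cells each, the median size of a member's log2 fold change, 0.18, was below its median SE, 0.23.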
